A study of Homo sapiens with 9 samples.

Results

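The RAS-MAPK pathway and its brakes were represented by 34 genes, chosen by name among the 19114 genes targeted by a genome-wide CRISPR-Cas9 knockout screen. They comprised 7 genes for adaptors, RAS exchange factors and a phosphatase, 5 for RAS proteins, 8 from RAF to ERK, 5 for RAS GTPase activating proteins (GAPs) and LZTR1, 6 for SPRED and Sprouty proteins, and 3 for ERK phosphatases. The first 20 transmit the signal and the other 14 restrain it. All 34 genes could be scored, with 131 of their 136 guides.

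The screen was performed in HEL-Cas9 cells, a human erythroleukemia line with mutated JAK2 that expresses the Cas9 nuclease and carries the Brunello guide library. Guides were read in 1 day 0 library (HEL cells with the library, before treatment) and, at day 12, in 4 libraries under DMSO, the solvent control, and in 4 under 200 nM ruxolitinib (RUX), a JAK inhibitor. Every condition shares the single line and the single day 0 library, and since nothing states that the 4 libraries of a condition came from separate infections, p-values measure the spread between libraries. Reads on guides numbered 21983632 at day 0 and between 19631338 and 26611323 at day 12, and DMSO replicate 3 was noisier than the rest, with an SD over control guides of 0.46 against 0.26 to 0.30 in the other 7 day 12 libraries.

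In the textbook pathway, activated receptors recruit the adaptors SHC1 and GRB2, and GRB2 brings SOS1 or SOS2 to the membrane, where they load RAS with GTP. RAS then activates RAF kinases, RAF phosphorylates MEK and MEK phosphorylates ERK. GAPs switch RAS off, while SPRED, Sprouty and DUSP proteins act as feedback brakes, and in blood cells the cascade is a known branch downstream of cytokine receptors that signal through JAK2.

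Each gene received 1 score per day 12 library. For every guide the natural log of its day 12 value over its day 0 value was taken, and these logs were averaged, on a scale that puts the median non-targeting guide near 0. A score of 0 thus means that knockout cells kept pace with control cells, and a score below −0.5 was counted as a dependency. The comparisons ask which knockouts were lost or gained over 12 days in each condition, and whether RUX changed that. Non-targeting guides taken 4 at a time gave 247 control scores, which ran from −0.50 to 0.29 under DMSO and from −0.35 to 0.28 under RUX. RPA3, a subunit of replication protein A and the positive control of the study, scored −0.93 ± 0.14 (SD, n = 4) under DMSO and −0.88 ± 0.09 (n = 4) under RUX, with limma adjusted p values of 0.047 and 0.057.

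No gene of the pathway passed the threshold (limma, Benjamini-Hochberg adjusted p of 0.05 over all genes) against day 0 or between the conditions. Among all 19112 scored genes, the share called was 1.16% for DMSO against day 0, 1.58% for RUX against day 0 and 0.0419% for RUX against DMSO. The lowest limma adjusted p over the 34 genes was 0.091 under DMSO, 0.19 under RUX and 0.50 between them. The quasi-likelihood test of edgeR on reads summed per gene called 0 in each comparison. Against day 0 it did not call the positive control RPA3 either (edgeR adjusted p of 0.45 under DMSO and 0.68 under RUX). Its 0 calls there therefore cannot show that the 34 genes were without effect. At an unadjusted p under 0.05, 4 of 34 genes (11.8%; GRB2, SOS1, SHC1 and NF1) stood out under DMSO, against 9.41% of all genes. Under RUX the number was again 4 (11.8%; GRB2, SHC1, GAB1 and PTPN11), against 10.1% of all genes. Scores below −0.5 were seen for 2 of 34 genes (5.88%) in each condition, GRB2 and NF1 under DMSO and GRB2 and PTPN11 under RUX, against 4.32% of all genes under DMSO and 4.63% under RUX. The other 31 genes (91.2%) lay between −0.5 and 0.3 in both conditions. The median score of the 34 genes was −0.10 under DMSO and −0.06 under RUX, beside −0.08 and −0.09 over all genes.

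**Figure D1:**
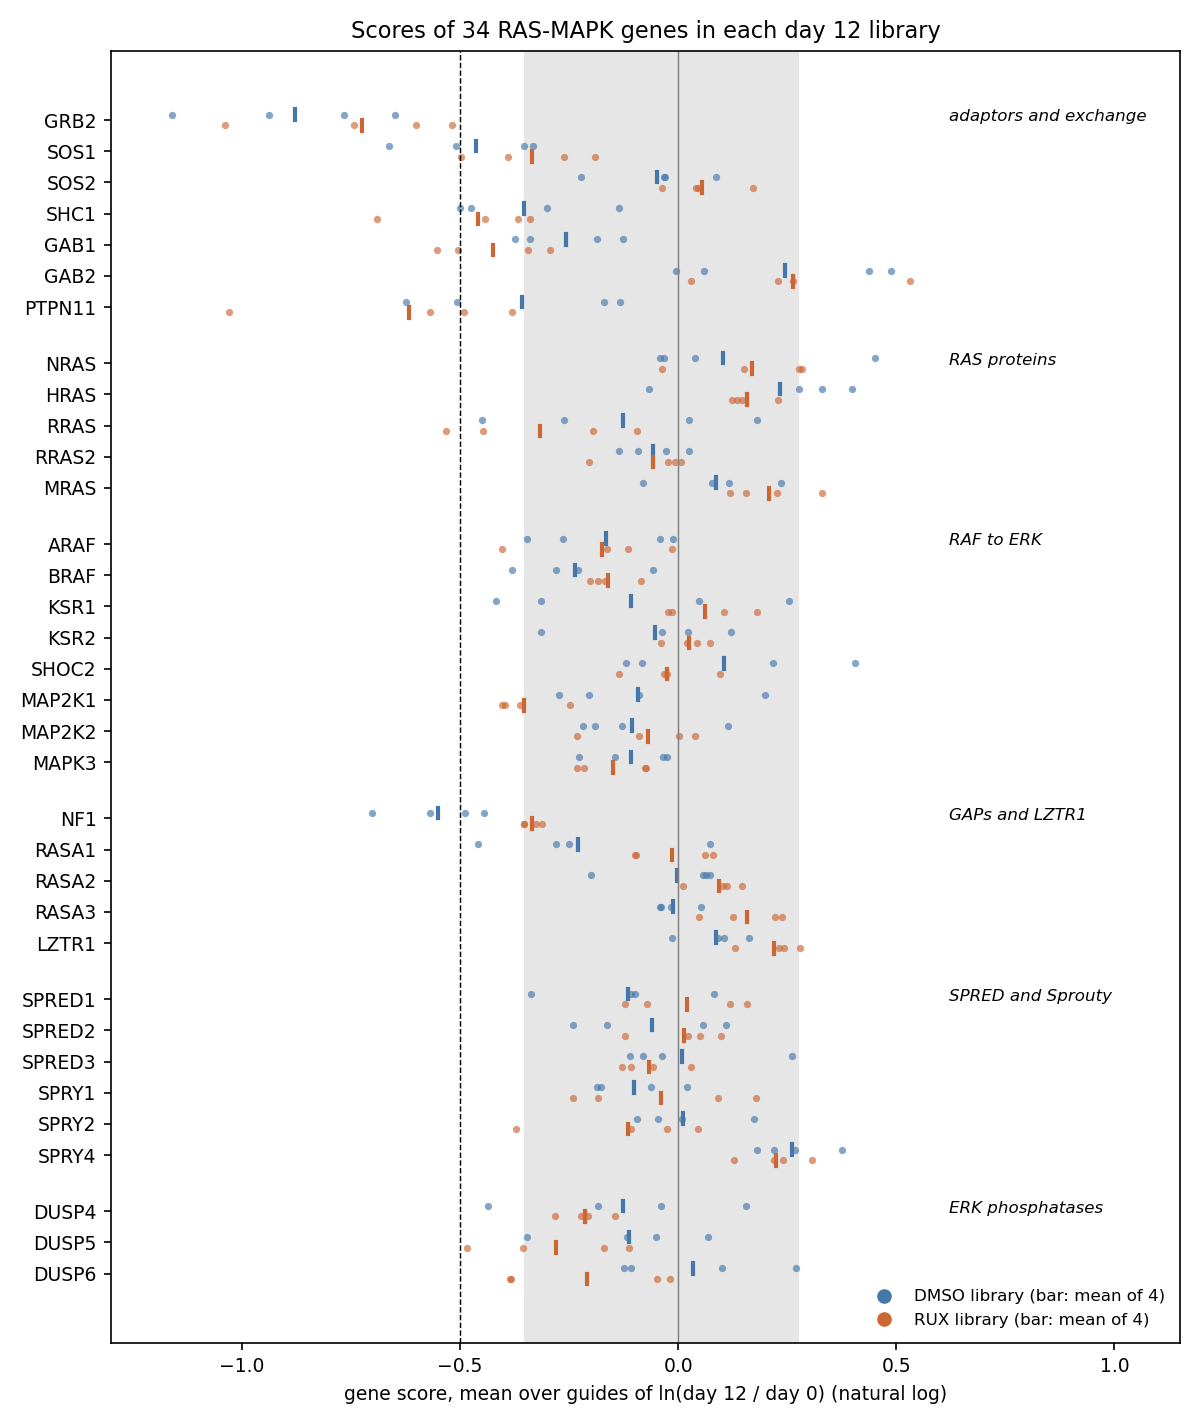
Score of each of the 34 genes (natural log, horizontal axis) in every day 12 library, grouped by role. Points are libraries (blue DMSO, orange RUX), bars are means of 4, the dashed line is the dependency threshold of −0.5 and the grey band is the range of control scores under RUX, −0.35 to 0.28. The range of control scores under DMSO, −0.50 to 0.29, is wider and is not drawn. Both ranges are of means over 4 libraries, not of single libraries like the points. GRB2 is the only gene whose 8 points all lie below the threshold. Most points of the RAS, SPRED and Sprouty genes lie within the band.

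The 7 adaptors, exchange factors and phosphatase at the entry of the pathway had a median score of −0.35 under DMSO and −0.42 under RUX, and 5 of the 7 were below the median of all genes in each condition, although 0 of them passed the test. GRB2, the adaptor that links phosphorylated receptors to SOS proteins (chromosome 17, 75318076 to 75405709 of GRCh38, minus strand), scored −0.77, −0.65, −1.16 and −0.94 in the DMSO libraries and −0.74, −0.60, −1.04 and −0.52 in the RUX libraries. All 8 libraries were below −0.5, and the ranges of the conditions overlapped. The mean of −0.88 ± 0.22 (SD, n = 4) under DMSO corresponds to 41.6% of the day 0 level and ranked 169 from the lowest of 19112 genes, with a limma adjusted p of 0.091. Under RUX the mean was −0.73 ± 0.23 (n = 4), 48.4% of the day 0 level, with an adjusted p of 0.20. The difference between RUX and DMSO was 0.15 (95% confidence interval −0.18 to 0.48; limma adjusted p = 0.82; exact permutation p = 0.34, two-sided). Leaving out 1 library moved this difference between 0.06 (without DMSO replicate 3) and 0.26 (without RUX replicate 3).

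The 4 guides against GRB2 differed among themselves. Guide sg_7685, from a value of 166.3 at day 0, stood at 18.7, 19.8, 6.06 and 28.6 under DMSO and at 84.8, 48.4, 25.3 and 76.7 under RUX. It was thus the most depleted guide under both conditions, with mean scores of −2.07 and −1.07. Guide sg_7688 scored −0.82 and −0.91, sg_7686 −0.30 and −0.72, and sg_7687 −0.32 and −0.20, under DMSO and RUX respectively. All 4 guides had scores below 0 in both conditions. Without the guide farthest from the others, the DMSO score of GRB2 was −0.48 and the difference between RUX and DMSO changed sign to −0.13. Without the noisy DMSO replicate 3 it was −0.78. Leaving out DMSO replicate 2 gave a DMSO score of −0.95 that passed the limma threshold (adjusted p = 0.049), as did limma without the mean-variance trend (adjusted p = 0.032).

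SOS1 and SHC1, partners of GRB2, also had mean scores below 0. So did most genes, since only 6023 of 19112 scored above 0 under DMSO and 5444 under RUX. SOS1, a RAS exchange factor, scored −0.35, −0.66, −0.51 and −0.33 under DMSO and −0.39, −0.26, −0.50 and −0.19 under RUX, with means of −0.46 ± 0.15 (limma adjusted p = 0.34) and −0.33 ± 0.14 (adjusted p = 0.57). Its paralog SOS2 scored −0.05 ± 0.13 and 0.06 ± 0.09. Within each library SOS1 was below SOS2, by a mean of −0.41 ± 0.27 under DMSO and −0.39 ± 0.10 under RUX (SD, n = 4 each). SHC1, an adaptor that recruits GRB2, scored −0.48, −0.30, −0.14 and −0.50 under DMSO and −0.69, −0.44, −0.37 and −0.34 under RUX, with means of −0.35 ± 0.17 (adjusted p = 0.47) and −0.46 ± 0.16 (adjusted p = 0.19). All 4 guides of SHC1 scored below 0 in both conditions, as did those of GAB1.

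GAB1 and GAB2, docking proteins that bind GRB2 and SHP2, lay on opposite sides of 0. GAB1 scored −0.34, −0.13, −0.37 and −0.19 under DMSO and −0.34, −0.55, −0.51 and −0.29 under RUX. GAB2 scored 0.06, −0.01, 0.44 and 0.49 under DMSO and 0.53, 0.26, 0.23 and 0.03 under RUX, and its RUX mean of 0.26 ± 0.21 lay at the 98.3 percentile of all genes. GAB1 was below GAB2 in all 8 libraries, by a mean of −0.50 ± 0.31 under DMSO and −0.69 ± 0.25 under RUX. The values of GAB2 rested mainly on 2 guides, sg_26166 (0.82 and 0.70 under DMSO and RUX) and sg_26168 (0.48 and 0.60), while sg_26167 scored −0.40 and −0.48.

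PTPN11, which encodes the phosphatase SHP2 (chromosome 12, 112418351 to 112509918, plus strand), scored −0.17, −0.62, −0.51 and −0.13 under DMSO and −1.03, −0.57, −0.49 and −0.38 under RUX. The conditions overlapped, and RUX replicate 1 was the lowest of the 8. The mean was −0.36 ± 0.24 under DMSO (limma adjusted p = 0.74) and −0.62 ± 0.29 under RUX (adjusted p = 0.36), a difference of −0.26 (95% confidence interval −0.59 to 0.08; adjusted p = 0.64; exact permutation p = 0.26). Without RUX replicate 1 the RUX score was −0.48 and the difference −0.12. Only 3 of its guides could be scored, since sg_15443 had 28 reads at day 0. Guide sg_15441 carried most of the difference, with values of 171.9, 87.2, 129.9 and 132.8 under DMSO and of 47.5, 78.9, 42.1 and 65.1 under RUX, from 174.4 at day 0. For this guide the conditions did not overlap, while the means of sg_15442 (0.06 and −0.16) and sg_15444 (−0.83 and −0.63) moved in opposite directions and their conditions overlapped.

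**Figure D2:**
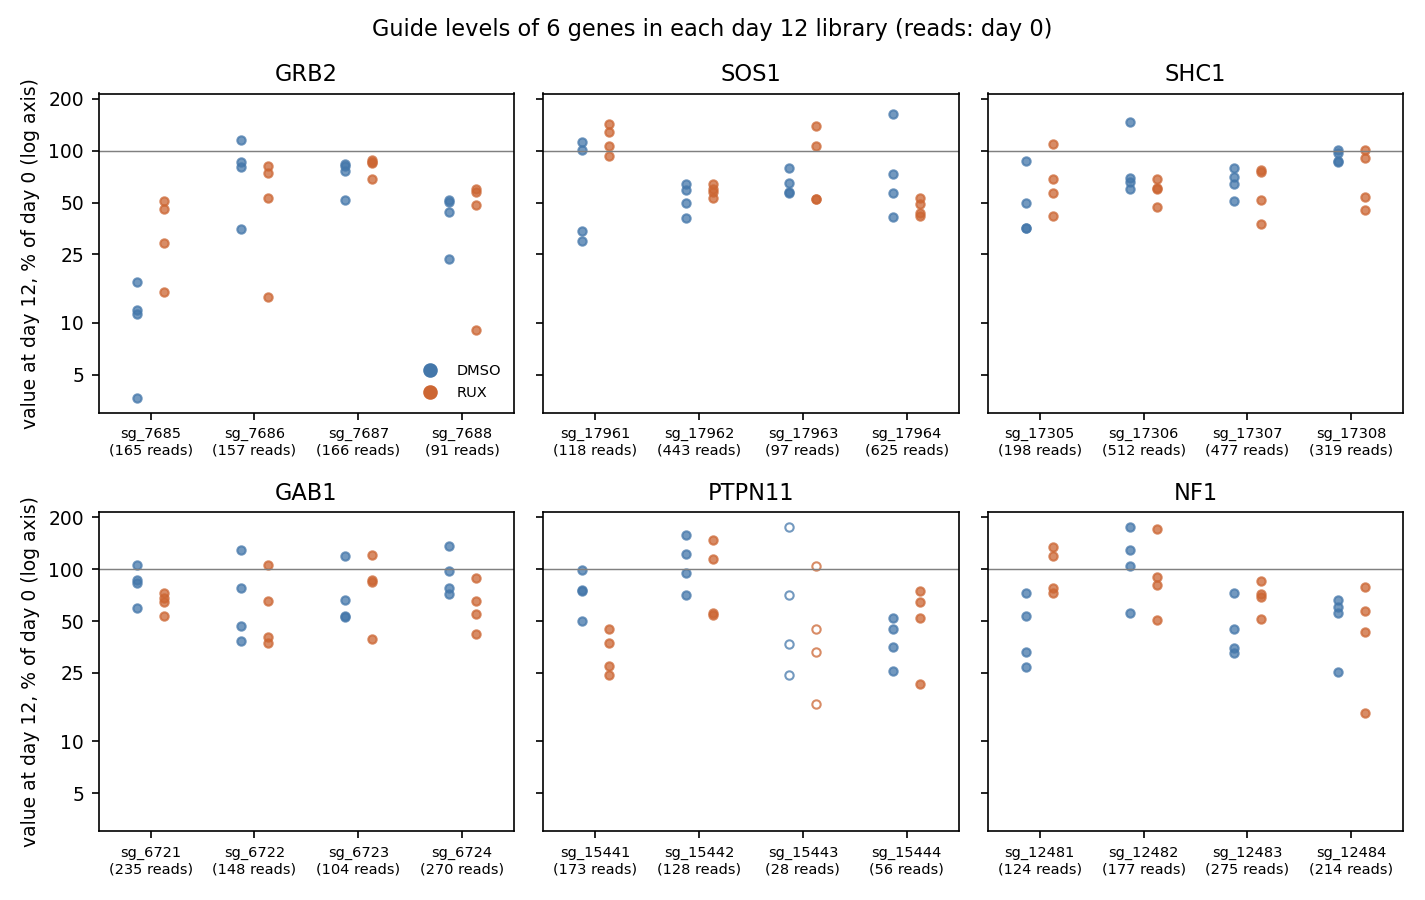
Value of each guide against 6 genes at day 12 as a percentage of its day 0 value (logarithmic vertical axis), in each DMSO (blue) and RUX (orange) library, with day 0 reads in brackets. The line marks 100%, and open circles are guide sg_15443 of PTPN11, which was not scored. Guide sg_7685 of GRB2 is the lowest under DMSO, and sg_15441 of PTPN11 and sg_12481 of NF1 separate the conditions in opposite directions.

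The 5 RAS proteins scored from −0.13 to 0.23 under DMSO and from −0.32 to 0.21 under RUX, and 3 of them were above 0 in each condition. NRAS and HRAS, the classical RAS genes of the list, scored 0.10 ± 0.23 and 0.23 ± 0.21 under DMSO and 0.17 ± 0.15 and 0.16 ± 0.05 under RUX (SD, n = 4). NRAS without DMSO replicate 3, which stood apart at 0.45, had DMSO libraries between −0.04 and 0.04. The related GTPases RRAS (−0.13 and −0.32 under DMSO and RUX), RRAS2 (−0.06 and −0.06) and MRAS (0.09 and 0.21) also stayed above −0.5. None of the 5 had an unadjusted p under 0.05 in any comparison.

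From RAF to ERK, 8 genes scored from −0.24 to 0.11 under DMSO and from −0.35 to 0.06 under RUX, with a median of −0.11 in both. The RAF kinases ARAF and BRAF scored −0.17 ± 0.17 and −0.24 ± 0.14 under DMSO and −0.17 ± 0.17 and −0.16 ± 0.05 under RUX. The scaffolds KSR1 (−0.11 and 0.06) and KSR2 (−0.05 and 0.02), and SHOC2 (0.11 and −0.02), which helps to release RAF from inhibition, lay around 0. MAPK3, which encodes the kinase ERK1, scored −0.11 ± 0.10 and −0.15 ± 0.09.

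The paralogs MAP2K1 and MAP2K2 encode the kinases MEK1 and MEK2. MAP2K1 scored −0.20, −0.09, 0.20 and −0.27 under DMSO and −0.40, −0.36, −0.40 and −0.25 under RUX, so that 3 of the 4 RUX libraries were below every DMSO library. The difference of −0.26 (95% confidence interval −0.51 to −0.02) had an unadjusted limma p of 0.037 and an adjusted p of 0.50 (exact permutation p = 0.057), and without DMSO replicate 3 it was −0.16. MAP2K2 scored −0.11 ± 0.15 under DMSO and −0.07 ± 0.12 under RUX. MAP2K1 was below MAP2K2 in 3 of 4 libraries under DMSO (mean difference 0.01 ± 0.23) and in 4 of 4 under RUX (−0.28 ± 0.14).

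Among the brakes, NF1 had the lowest score. NF1 encodes neurofibromin, a GAP that switches RAS off (chromosome 17, 31094927 to 31382116, plus strand). It scored −0.45, −0.49, −0.70 and −0.57 under DMSO and −0.35, −0.35, −0.31 and −0.33 under RUX, and it was the only gene of the 34 (2.94%) whose libraries did not overlap between the conditions, against 4.94% of all genes. The means were −0.55 ± 0.11 under DMSO (57.6% of the day 0 level; limma adjusted p = 0.25) and −0.34 ± 0.02 under RUX (71.5%; adjusted p = 0.62). The difference was 0.21 (95% confidence interval −0.04 to 0.47; adjusted p = 0.60), and the exact permutation p was 0.029, the smallest that 4 against 4 libraries allow. The 20 genes nearest to NF1 had a median score of −0.18 under DMSO and −0.07 under RUX. With that median subtracted in each library, NF1 scored −0.37 and −0.27 and the conditions overlapped. Without DMSO replicate 3 its DMSO score was −0.50.

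The guides against NF1 split between the conditions. Guide sg_12481 stood at 90.4, 41.4, 66.7 and 33.8 under DMSO and at 149.0, 96.8, 167.6 and 91.4 under RUX, from 125.0 at day 0, so that every RUX value was higher than every DMSO value. Guide sg_12483 scored −0.80 under DMSO and −0.37 under RUX. The other two showed no such gap, with −0.69 and −0.84 for sg_12484 and 0.07 and −0.10 for sg_12482.

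All 5 genes of this group had a higher mean under RUX than under DMSO, with differences between 0.09 and 0.22, while 53.5% of all genes were lower under RUX. RASA3, a GAP for RAS and RAP proteins, scored 0.05, −0.04, −0.02 and −0.04 under DMSO and 0.22, 0.13, 0.05 and 0.24 under RUX. The conditions met at RUX replicate 3 and DMSO replicate 1, and the difference of 0.17 (95% confidence interval 0.01 to 0.33) had an unadjusted limma p of 0.039 and an adjusted p of 0.51. One guide, sg_30904, accounted for most of it, with −0.12 under DMSO and 0.53 under RUX. LZTR1, a ubiquitin ligase adaptor for RAS-family proteins, scored 0.16, −0.02, 0.11 and 0.09 under DMSO and 0.28, 0.23, 0.24 and 0.13 under RUX, a difference of 0.14 (−0.03 to 0.30; adjusted p = 0.61). RASA1 scored −0.23 ± 0.22 and −0.01 ± 0.10, and RASA2 0.00 ± 0.13 and 0.09 ± 0.06, under DMSO and RUX. Without DMSO replicate 1, which stood apart at −0.20, the difference of RASA2 was 0.03. The median of the 5 genes was −0.20, −0.04, −0.02 and 0.07 in the DMSO libraries and 0.11, 0.01, 0.05 and 0.10 in the RUX libraries, so the conditions overlapped.

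The SPRED proteins, which bring neurofibromin to the membrane, and the Sprouty proteins, feedback inhibitors of receptor signalling, scored near 0. SPRED1, SPRED2 and SPRED3 scored −0.12, −0.06 and 0.01 under DMSO and 0.02, 0.01 and −0.07 under RUX. SPRY1 and SPRY2 scored −0.10 and 0.01 under DMSO and −0.04 and −0.12 under RUX, each from 3 guides. SPRY4 had the highest DMSO score of the 34 genes, with 0.22, 0.27, 0.37 and 0.18 under DMSO (mean 0.26 ± 0.08, 97.6 percentile of all genes) and 0.24, 0.31, 0.13 and 0.22 under RUX (mean 0.22 ± 0.07). It was above 0 in all 8 libraries and did not pass the test. The DMSO mean lay within the range of control scores under DMSO, −0.50 to 0.29. Over the alternative settings the DMSO score of SPRY4 ran from 0.02 (day 0 value of at least 100) to 0.35 (neighbour median subtracted). A single guide, sg_51958 with 77 reads at day 0, scored 1.00 under DMSO, and the other three scored between −0.08 and 0.11.

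The ERK phosphatases DUSP4, DUSP5 and DUSP6 each had a lower mean under RUX than under DMSO, and the libraries of the conditions overlapped for each of them. DUSP6, which dephosphorylates ERK in the cytoplasm, scored −0.12, 0.27, 0.10 and −0.11 under DMSO and −0.38, −0.39, −0.02 and −0.05 under RUX. The conditions overlapped, and the difference of −0.24 (95% confidence interval −0.48 to −0.01) had an unadjusted limma p of 0.042, an adjusted p of 0.51 and an exact permutation p of 0.17. It was carried by guide sg_5162 (0.10 under DMSO and −0.77 under RUX), and without the guide farthest from the others the difference was −0.04. DUSP5 and DUSP4, nuclear phosphatases of ERK, differed by −0.17 (−0.35 to 0.01) and −0.09 (−0.32 to 0.14). Without the noisy DMSO replicate 3 the difference of DUSP4 was 0.01, and that of DUSP5 was −0.10 without RUX replicate 1 and −0.11 without DMSO replicate 1.

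Between RUX and DMSO, 3 of the 34 genes (8.82%; MAP2K1, RASA3 and DUSP6) had an unadjusted limma p under 0.05, against 9.45% of all genes. Of the 34 genes, 15 (44.1%) were lower under RUX. The differences spanned −0.26 to 0.22 with standard errors of 0.07 to 0.17, and their median was 0.03 beside −0.01 over all genes. The 20 transmitting genes and the 14 brakes had median differences of 0.01 and 0.07.

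**Figure D3:**
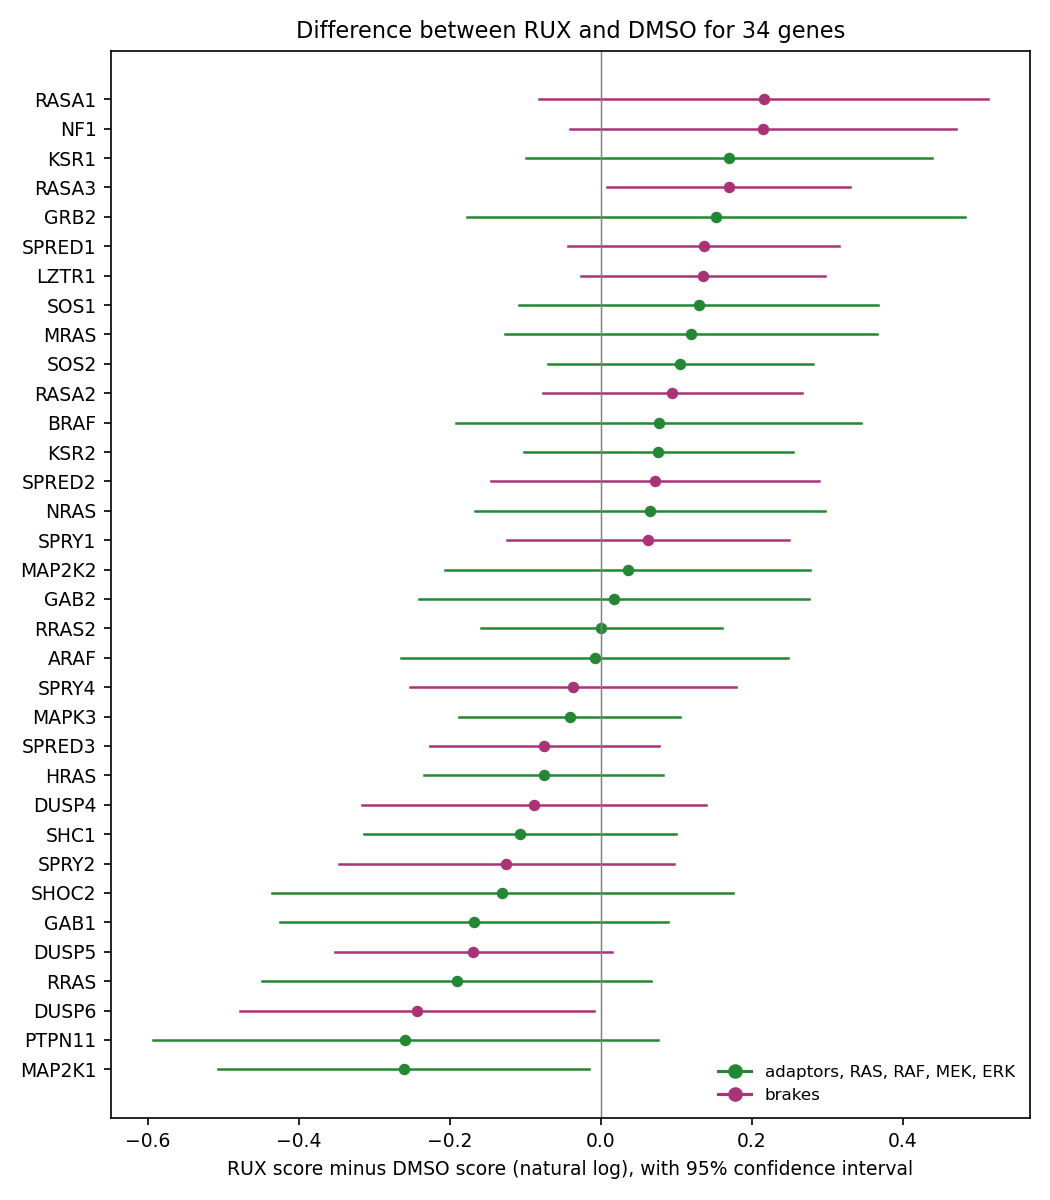
Difference between the RUX and the DMSO score (natural log, horizontal axis) of each of the 34 genes, sorted by size, with limma's 95% confidence interval as a line. Green marks the 20 transmitting genes and purple the 14 brakes. The intervals of 3 genes, MAP2K1, DUSP6 and RASA3, leave out 0, and both colours occur on both sides of 0.

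At the level of guides, 15 of 131 (11.5%) scored below −0.5 under DMSO and 18 of 131 (13.7%) under RUX, against 11.8% and 11.8% of the 75434 scored guides of all genes. Under DMSO, 22 of the 34 genes had no guide below −0.5 and 10 had 1, while GRB2 had 2 and NF1 had 3. Under RUX, 21 genes had none and 9 had 1, while SOS1, SHC1 and PTPN11 had 2 each and GRB2 had 3. Over all 19112 scored genes, 348 under DMSO and 353 under RUX had 3 or more guides below −0.5, beside 1 of the 34 in each condition. Every guide scored below 0 under DMSO for GRB2, SOS1, SHC1 and GAB1. Under RUX this held for 10 genes, GRB2, SHC1, GAB1, PTPN11, RRAS, MAP2K1, MAPK3, NF1, SPRY2 and DUSP5. The share of all genes with every guide below 0 was not computed. The medians of all gene scores were themselves below 0, at −0.08 under DMSO and −0.09 under RUX. The values of RUX and DMSO did not overlap for 9 of 131 guides (6.87%), against 4.64% of all guides, and 6 of the 9 were higher under RUX. These 9 guides belonged to 9 different genes. The member guides had between 49 and 1063 reads at day 0, with a median of 220 against 236 for all scored guides, and the median SD between guides of a gene was 0.26 under DMSO and 0.28 under RUX, against 0.29 and 0.28 over all genes.

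**Figure D4:**
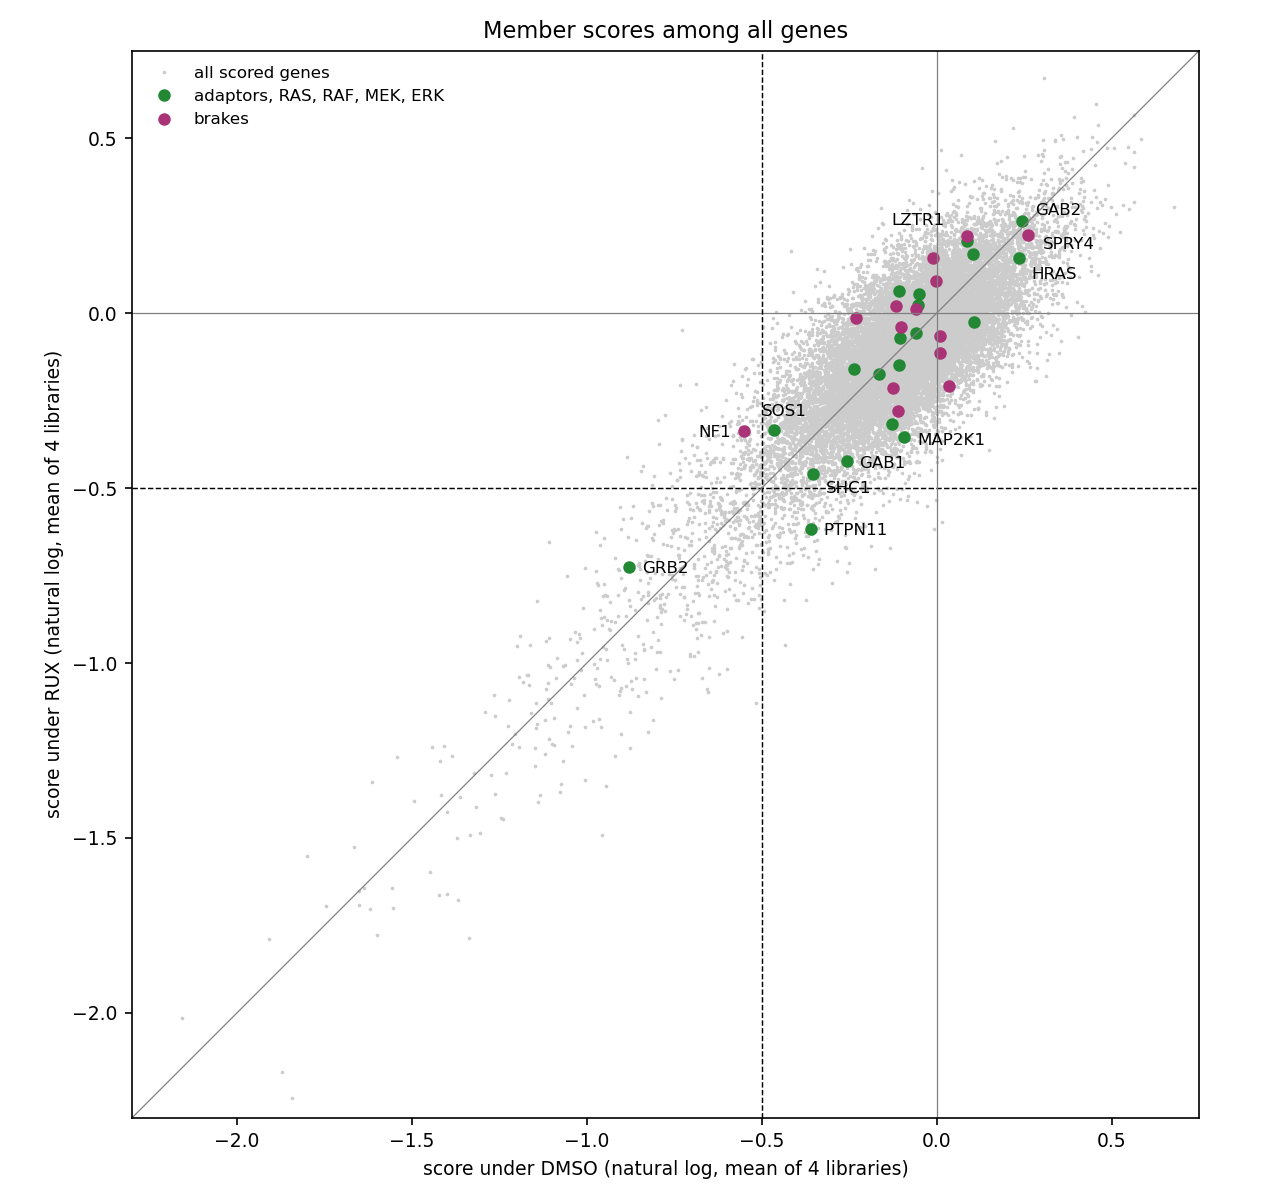
Mean score under DMSO (horizontal) against mean score under RUX (vertical), both natural logs over 4 libraries, for all 19112 scored genes (grey) with the transmitting genes in green and the brakes in purple. Dashed lines mark −0.5 and the diagonal marks equal scores. GRB2 (−0.88 and −0.73) is the gene of the pathway farthest from 0. It lies, like the other named genes, within the range of all genes, whose lowest scores are −2.16 under DMSO and −2.24 under RUX.

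In a list of 44 other genes of the pathway, 0 were called in each of the 3 comparisons by limma and by edgeR. Its median score was −0.04 under DMSO and −0.06 under RUX, and 4 (9.09%), 6 (13.6%) and 5 (11.4%) of the 44 had an unadjusted p under 0.05 for DMSO, RUX and their difference, against 9.41%, 10.1% and 9.45% of all genes. FNTB, a subunit of the farnesyltransferase that attaches the lipid anchor to RAS, had the lowest score, with −0.66 ± 0.36 under DMSO (limma adjusted p = 0.39) and −0.70 ± 0.38 under RUX (adjusted p = 0.31). FNTA, the other subunit, scored −0.36 ± 0.04 and −0.38 ± 0.15. CIC, a transcriptional repressor that ERK signalling relieves, had the highest DMSO score of the list, with 0.34 ± 0.19 (adjusted p = 0.31) and 0.27 ± 0.05 under RUX. RASGRP1, a RAS exchange factor, scored −0.15 ± 0.10 under DMSO and −0.51 ± 0.17 under RUX, a difference of −0.36 (95% confidence interval −0.63 to −0.10; adjusted p = 0.36). DAB2IP, a RAS GAP, scored −0.01 ± 0.13 and −0.32 ± 0.12, a difference of −0.31 (−0.52 to −0.10; adjusted p = 0.34). RASGRP1 and DAB2IP were the 2 genes of the list (4.55%) whose libraries did not overlap between the conditions, against 4.94% of all genes. RASA4 scored −0.05 ± 0.10 under DMSO and −0.28 ± 0.12 under RUX, a difference of −0.22 (−0.39 to −0.06; limma adjusted p = 0.37). MKNK2, a kinase that ERK activates, lay the other way, with −0.23 ± 0.16 under DMSO and 0.07 ± 0.22 under RUX, a difference of 0.30 (0.01 to 0.60; adjusted p = 0.52). FNTA, DAB2IP, RASA4 and MKNK2 were named after their values were seen.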

How the data were processed

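The authors counted guides in 75 base single reads with MAGeCK and scaled each library, so the deposited values are a signal per guide, not a read count. In all 9 libraries 100% of the values divided by 1 factor per library gave whole reads (tolerance 0.01), and edgeR 4.0.16 used those recovered reads, summed per gene. It called 73 genes under DMSO, 113 under RUX and 6 between them. The authors' beta scores, which include a copy number step, were not used here.

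In R 4.3.3 each library received a factor, the median over control guides of its value relative to that guide's geometric mean over the 9 libraries. The signal was divided by this factor, taken relative to that of day 0. Scores used a pseudocount of 5, guides whose day 0 value reached 30 and genes with at least 2 such guides. All 9 libraries entered limma 3.58.1 (lmFit, eBayes with trend over the mean log level) with 1 mean per condition and Benjamini-Hochberg adjustment over 19112 genes. Since day 0 has 1 library, its spread was taken to equal that of the others. Single genes were also compared by a two-sided exact permutation test over 70 splits. Confidence intervals are limma's. GENCODE 44 gave gene positions on GRCh38, 17949 by symbol and 983 by an older symbol, while 182 were not placed.

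The 34 genes, the other pathway list and the tests were chosen with earlier results of these data known. Values in every library are given for genes below −0.5 or above 0.3, called, or not overlapping between conditions. Those of SOS1, SHC1, GAB1, GAB2, MAP2K1, RASA3, LZTR1, SPRY4 and DUSP6, and the guides described for other genes than GRB2, PTPN11 and NF1, were added after the values were seen. Alternatives changed the scaling, pseudocount, day 0 filter, summary over guides, trend, block, tool and libraries, or subtracted the median score of the 20 nearest genes. No copy number data were used. The limma and edgeR steps were tested on simulated data for RUX against DMSO only, with the same effect on every guide of a gene. The comparisons against the single day 0 library, and guides that differ within a gene, were not tested in this way. No guide sequences were used here.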

Additional observations from a re-analysis of the deposited data

Results flagged for a closer look

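In 3 of 68 groups of 4 libraries (34 genes in 2 conditions), 1 library stood apart from the other three by Dixon's test, and chance alone gives about 3.4. NRAS scored 0.45 in DMSO replicate 3, the noisiest library, against −0.04 to 0.04 in the others. RRAS2 scored −0.21 in RUX replicate 4, against −0.02 to 0.01. RASA2 scored −0.20 in DMSO replicate 1, against 0.06 to 0.07. None of the 3 genes was called, with or without that library.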

How the results depend on the processing

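No gene of the 34 passed against day 0 under RUX, or between RUX and DMSO, under any of the 22 alternatives. Under DMSO, GRB2 passed in 2 of them, limma without trend (1 gene called) and without DMSO replicate 2, so that leaving out 1 library gave 0 to 1 genes. Against 2 genes below −0.5 under DMSO, there was 1 with libraries scaled over all guides, with values as deposited, with a pseudocount of 20, with the neighbour median subtracted and with edgeR, there were 3 with a day 0 value of at least 100 and with the median over guides, and leaving out 1 library gave 2 to 3. Under RUX, 1 gene was below −0.5 with the neighbour median subtracted and with edgeR, and leaving out 1 library gave 1 to 2. Against 1 gene whose libraries did not overlap, there were 2 with scaling over all guides, with values as deposited, with the median over guides and with the farthest guide left out, 3 with scaling to the library total and 0 with the neighbour median subtracted, and leaving out 1 library, which makes non-overlap easier, gave 1 to 3. For all genes, the shares below −0.5 and without overlap were computed with the main settings only. Whether these shifts in the counts follow a shift over all genes was therefore not tested. Under edgeR the median of all genes under RUX moved from −0.09 to 0.01. The replicate numbers do not pair the libraries: deviations of same-numbered DMSO and RUX libraries correlated at −0.01, −0.13, −0.11 and 0.03 over genes. With the replicate number as a block, 0 members were called in each comparison, 2 and 2 were below −0.5, and 206, 301 and 13 of all genes were called for DMSO, RUX and their difference. Over all genes the counts called for DMSO, RUX and their difference, 222, 302 and 8 with the main settings, also changed with the processing. They were 144, 153 and 3 with scaling over all guides or values as deposited, 160, 156 and 3 with scaling to the library total, 258, 352 and 14 with a pseudocount of 20, 246, 315 and 5 with no day 0 filter, 151, 220 and 2 with a day 0 value of at least 100, 278, 329 and 0 without trend, 0, 0 and 0 with the median over guides, 76, 102 and 1 with the farthest guide left out, 20, 11 and 0 with the neighbour median subtracted, and 73, 113 and 6 with edgeR. A trend over the mean score, chosen after seeing the data, gave 68, 104 and 0, and leaving out 1 library gave 170 to 251, 233 to 394 and 1 to 45, the last without DMSO replicate 2. The member guides had a median of 220 reads at day 0, and the standard errors were 0.12 to 0.26 against the single day 0 library and 0.07 to 0.17 between RUX and DMSO.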
